A study of Mus musculus with 2 samples.

Results

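The heat shock proteins described here are a set of 10 mouse genes chosen by symbol from a list that uses no threshold on their values, although earlier results of these data were known when the list was made. They are the small heat shock proteins Hspb1, Hspb8 and Cryab, the HSP70 chaperones Hspa1a, Hspa1b and Hspa2, the HSP110 protein Hsph1, the HSP90 chaperones Hsp90aa1 and Hsp90ab1, and the transcription factor Hsf1. A probe set, which is a group of short probes against one transcript on an Affymetrix array, was taken as a member if the platform annotation gave it 1 of these symbols alone. This gave 20 of the 45101 probe sets of the array, and 8 of the 18193 genes represented. No probe set was assigned to Hsp90ab1 or Hsf1, and both genes were not analysed here.

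The series compared SVEC4-10, a line labelled endothelial and derived from an axillary lymph node of the mouse and cultured in DMEM with 10% fetal calf serum, with MS-1, a line labelled endothelial and derived from the microvessels of the mouse pancreas and cultured in DMEM with 5% serum. Both lines carry the SV40 large T antigen, and both were grown for 3 to 5 days to confluence, used up to passage 5 and dissociated with trypsin before their RNA was taken. There was 1 array per line, from 1 culture each, so no value has a replicate check and no test between the lines was possible. Line and serum cannot be told apart. All 12 endothelial markers examined were at least 4-fold lower in SVEC4-10 cells, 9 of them under background there, so SVEC4-10 is named here by its label only.

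Heat shock proteins are molecular chaperones. Small heat shock proteins bind unfolding proteins without using ATP and hold them in a state from which they can be refolded or cleared. HSP70 proteins bind and release exposed stretches of protein in an ATP cycle, driven by J-domain partners and by exchange factors such as Hsph1, and pass part of their clients on to HSP90, which matures kinases and hormone receptors. Many of these genes are switched on by Hsf1, which binds inverted repeats of the bases GAA in their promoters when cells are stressed, and in endothelium Hspb1 is known as a regulator of actin and Hsp90aa1 as a partner of nitric oxide synthase.

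The lines differed mainly in Hspb8 and in Hsph1, which was 2.11-fold lower in SVEC4-10 cells. Hspb8 was higher in SVEC4-10 cells by all 3 of its probe sets. The difference ran from 5.73-fold, by the probe set above background on both arrays, to at least 25.6-fold by the brightest. The MS-1 value behind the 5.73-fold is itself close to background. Hspb1, Cryab, Hspa1b, Hspa2 and Hsp90aa1 were within 2-fold between the lines. Hspa1a was at least 1.22-fold lower in SVEC4-10 cells, where it was under background, so whether it passes 2-fold cannot be read from its value. Thus 1 of 8 members was at least 2-fold higher in SVEC4-10 cells, against 15.1% of the 12583 genes measured, and 1 of 8 was at least 2-fold lower, against 12.1% of those genes, so that the members' counts are near the shares of all genes. The median log2 ratio of SVEC4-10 over MS-1 was -0.15 over the 8 members and 0.02 over all measured genes. Scaling the arrays to poly-A control transcripts that were added to the RNA, in place of the deposited scaling, lowers every log2 ratio by 0.51 and leaves the order of the genes as it is. Of all genes at least 2-fold apart, 55.4% were higher in SVEC4-10 cells with the deposited scaling and 25.2% with that one. As RNA of whole cultures was measured, fewer cells of a type and less RNA per cell cannot be told apart. A probe set was measured if its intensity exceeded background on at least 1 array, where background was 17.6 for the SVEC4-10 array and 16.3 for the MS-1 array. Values under background were raised to it, and a fold against background is given as "at least". All 8 members with a probe set passed this filter by at least 1 probe set. Of their 20 probe sets, 14 were above background on both arrays, 3 on the SVEC4-10 array alone, 1 on the MS-1 array alone and 2 on neither.

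The error of a log2 ratio was taken from pairs of probe sets of the same gene. Its standard deviation was 0.48 over 4813 genes, and 0.40 over the brightest 1604 of them. This error holds neither the variation between cultures nor an error of scaling that all probe sets share.

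**Figure D1:**
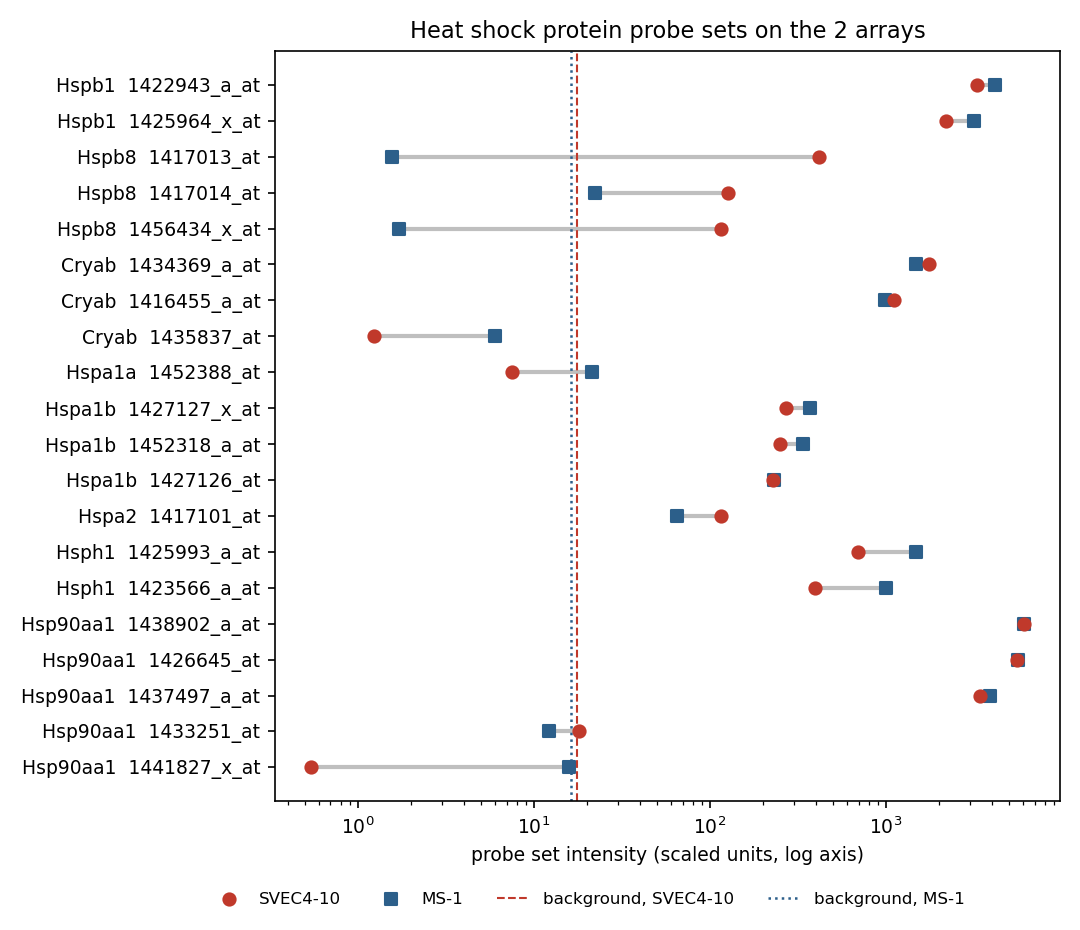
Intensity of the 20 heat shock protein probe sets in SVEC4-10 cells (circles) and MS-1 cells (squares), in scaled units on a log axis, with the background of each array as a vertical line and 1 row per probe set. The 3 Hspb8 probe sets lie apart towards SVEC4-10 and both Hsph1 probe sets towards MS-1, while the circles and squares of the brightest 3 Hsp90aa1 probe sets lie on or close to each other.

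The stretch of 250 bases before the transcription start is printed for 4 members. They are Hspb8 and Hsph1, the members at least 2-fold apart, Hspb1, a small heat shock protein of the same chromosome that was within 2-fold, and Hspa1b, a stress-inducible HSP70. The sequences are those of RefSeq on build GRCm38.p6, written 5′ to 3′ on the strand of the gene. Capitals mark each match to TTCNNGAA or GAANNTTC, the 2-unit forms of the sequence that Hsf1 binds, where N is any base. Both forms read the same on either strand.
Hspb8, chr5:116422865-116423114, minus strand: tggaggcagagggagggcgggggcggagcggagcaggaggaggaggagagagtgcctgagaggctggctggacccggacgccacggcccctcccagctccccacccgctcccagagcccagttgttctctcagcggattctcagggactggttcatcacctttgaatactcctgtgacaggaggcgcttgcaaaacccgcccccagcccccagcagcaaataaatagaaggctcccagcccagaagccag
Hsph1, chr5:149636337-149636586, minus strand: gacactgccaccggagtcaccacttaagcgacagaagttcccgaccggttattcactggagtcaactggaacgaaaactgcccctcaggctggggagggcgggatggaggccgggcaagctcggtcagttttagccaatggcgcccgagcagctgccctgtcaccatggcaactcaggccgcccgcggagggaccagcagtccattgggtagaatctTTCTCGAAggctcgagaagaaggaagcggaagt
Hspb1, chr5:135887669-135887918, plus strand: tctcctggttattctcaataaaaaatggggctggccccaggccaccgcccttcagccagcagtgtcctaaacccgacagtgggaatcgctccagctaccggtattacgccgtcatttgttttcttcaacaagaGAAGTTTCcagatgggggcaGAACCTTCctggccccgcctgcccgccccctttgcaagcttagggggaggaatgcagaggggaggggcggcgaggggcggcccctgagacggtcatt
Hspa1b, chr17:34959239-34959488, minus strand: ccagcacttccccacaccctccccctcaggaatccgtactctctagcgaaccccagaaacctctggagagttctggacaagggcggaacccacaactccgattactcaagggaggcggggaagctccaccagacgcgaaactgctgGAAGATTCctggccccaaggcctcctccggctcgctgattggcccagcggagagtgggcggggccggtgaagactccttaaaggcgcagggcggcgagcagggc

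Of the 6 members with an entry in that table, 4 held a 2-unit form in this window and 2 did not, Hspb8 and Hspa2. Over the 32851 windows of the table, counted by window and not by gene, 12.8% held either form. The 4 members include Hspa1a and Hspa1b, whose windows are nearly the same, and many heat shock protein genes were known Hsf1 targets beforehand. The count of members is thus no test of enrichment. In Hspb1 there were 2 matches, whose first bases lie 117 and 97 bases before the start. The single match of Hsph1 begins 33 bases before the more upstream of its 2 starts in the table, and that of Hspa1b begins 104 bases before its start. The 3-unit form GAANNTTCNNGAA, searched on both strands, contains both 2-unit forms. It was in no member's window and in 0.466% of all windows. The windows of Hspa1a and Hspa1b differed at 3 of 250 bases and held the same match at the same place. Cryab, Hsp90aa1, Hsp90ab1 and Hsf1 had no entry. These matches describe letters only, and binding of Hsf1 was not measured.

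Hspb8, also called HSP22, works with the co-chaperone Bag3 to send damaged proteins to autophagy. Its brightest probe set, 1417013_at, had an intensity of 417 in SVEC4-10 cells and of 1.57 in MS-1 cells, which is under background. The difference by this probe set was at least 25.6-fold, a log2 ratio of at least 4.68, or of at least 3.68 with background doubled. Each of the other 2 probe sets also gave higher signal in SVEC4-10 cells. Probe set 1417014_at had intensities of 127 in SVEC4-10 cells and 22.2 in MS-1 cells, both above background, and a log2 ratio of 2.52. Its MS-1 value is close to the background of 16.3 on that array, so the size of this ratio is uncertain. Probe set 1456434_x_at, of a class that can hybridise to related sequences, had 115 in SVEC4-10 cells and 1.72 in MS-1 cells, a difference of at least 7.08-fold. The smallest of these 3 log2 ratios is more than 4 times the error of 0.56 found for the dimmest 1605 genes. A difference of at least 4-fold towards SVEC4-10 was found for 5.71% of all measured genes. Bag3 itself did not share it, with intensities of 246 in SVEC4-10 cells and 282 in MS-1 cells and a log2 ratio of -0.20.

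Hspb1, known as HSP25 in the mouse, binds actin and is a substrate of stress-activated kinases. Its probe set used here had an intensity of 3279 in SVEC4-10 cells and 4139 in MS-1 cells, a log2 ratio of -0.34. The second probe set had 2185 in SVEC4-10 cells and 3159 in MS-1 cells, a log2 ratio of -0.53. Signal was thus lower in SVEC4-10 cells by both, with 1 ratio inside and 1 outside the error of 0.40 for bright genes with the deposited scaling. The ratio of the probe set used was -0.85, outside it, under scaling to the poly-A controls.

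Cryab encodes alpha-B-crystallin, a lens protein that also binds desmin and actin in muscle and stromal cells. It had intensities of 1755 in SVEC4-10 cells and 1484 in MS-1 cells by the probe set used, and of 1112 in SVEC4-10 cells and 989 in MS-1 cells by another. The log2 ratios of 0.24 and 0.17 are within the error, and the direction turns under scaling to the poly-A controls, which gives -0.27. A further probe set was under background on both arrays. Hspb2, the small heat shock protein gene that lies beside Cryab on chromosome 9, differed much more. It had an intensity of 240 in SVEC4-10 cells and 23.8 in MS-1 cells, a log2 ratio of 3.33 from its only probe set. The MS-1 value is close to the background of 16.3 on that array, so the size of this ratio is uncertain. The gene on the other side in the RefSeq table, 2310030G06Rik, had 305 in SVEC4-10 cells and 0.593 in MS-1 cells, which is under background, and was at least 18.7-fold higher in SVEC4-10 cells. That gene was looked up after the Cryab and Hspb2 values were seen. The RefSeq spans of both neighbours overlap that of Cryab, and whether the probes tell transcripts across these spans apart was not tested.

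Among the other small heat shock proteins, 3 of 6 were measured. At least 2-fold higher in SVEC4-10 cells were 15.1% of all measured genes and 2 of these 3. These were Hspb2 and Hspb6, a relative found mainly in muscle, which had intensities of 260 in SVEC4-10 cells and 130 in MS-1 cells, a 2.00-fold difference at the edge of the threshold. Hspb7, a small heat shock protein of heart muscle, was close to background with 23.5 in SVEC4-10 cells and 15.3, under background, in MS-1 cells. Hspb3, Hspb9 and Cryaa were not above background on either array.

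Hspa1a and Hspa1b encode the stress-inducible HSP70 and lie side by side on chromosome 17. Their sequences are nearly the same, so that probes assigned to one can also bind transcripts of the other, and values of the pair are uncertain as values of either gene. The Hspa1b probe set used had intensities of 251 in SVEC4-10 cells and 337 in MS-1 cells, a log2 ratio of -0.42. The probe set of the cross-hybridising class had 271 in SVEC4-10 cells and 369 in MS-1 cells, a log2 ratio of -0.44. The most specific class of probe set, 1427126_at, had nearly equal intensities, 228 in SVEC4-10 cells and 230.5 in MS-1 cells, with a log2 ratio of -0.01. All 3 ratios are inside the error of 0.47 for genes of middle signal with the deposited scaling. That of the probe set used was -0.94, outside it, under scaling to the poly-A controls. The only Hspa1a probe set was near background, with 7.56 in SVEC4-10 cells and 21.4 in MS-1 cells, and it was at least 1.22-fold lower in SVEC4-10 cells, a log2 ratio of -0.28 or below, since the SVEC4-10 value was raised to background. Hspa1l, the neighbour of Hspa1a that is expressed mainly in testis, was not above background on either array.

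Hspa2, an HSP70 best known from male germ cells, had the second highest ratio of the members. Its only probe set had intensities of 115 in SVEC4-10 cells and 65.2 in MS-1 cells, a 1.76-fold difference and a log2 ratio of 0.82. This is above the error of 0.56 for dim genes and under the 2-fold threshold, and it came to 0.31 under scaling to the poly-A controls.

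Hsph1, or HSP105, is an HSP110 protein that exchanges the nucleotide of HSP70 and also holds unfolded proteins. Probe set 1425993_a_at had an intensity of 695 in SVEC4-10 cells and 1470 in MS-1 cells, a log2 ratio of -1.08. Probe set 1423566_a_at had 397 in SVEC4-10 cells and 995 in MS-1 cells, a log2 ratio of -1.33 or 2.51-fold lower. Both ratios exceed the error of 0.40 for bright genes by over 2 times, and they point the same way. Among the brightest 3358 genes above background on both arrays, 10.3% were at least 2-fold lower in SVEC4-10 cells. Both Hsph1 probe sets are of the _a_at class, which was dropped together with _s_at and _x_at where less specific classes were left out. The Hsph1 ratio lies close to the threshold.

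Hsp90aa1 is the inducible cytosolic HSP90. Its probe set used had intensities of 6024 in SVEC4-10 cells and 6068 in MS-1 cells, a log2 ratio of -0.01. Another 2 bright probe sets had 5506 in SVEC4-10 cells against 5639 in MS-1 cells, and 3404 in SVEC4-10 cells against 3870 in MS-1 cells, with log2 ratios of -0.03 and -0.18. The ratios of the bright probe sets were thus within the error of 0.40 with the deposited scaling, and that of the probe set used was -0.52, outside it, under scaling to the poly-A controls. Of the remaining probe sets, 1 was barely above background in SVEC4-10 cells alone (18.0 there and 12.2 in MS-1 cells), and 1 was under background on both.

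**Figure D2:**
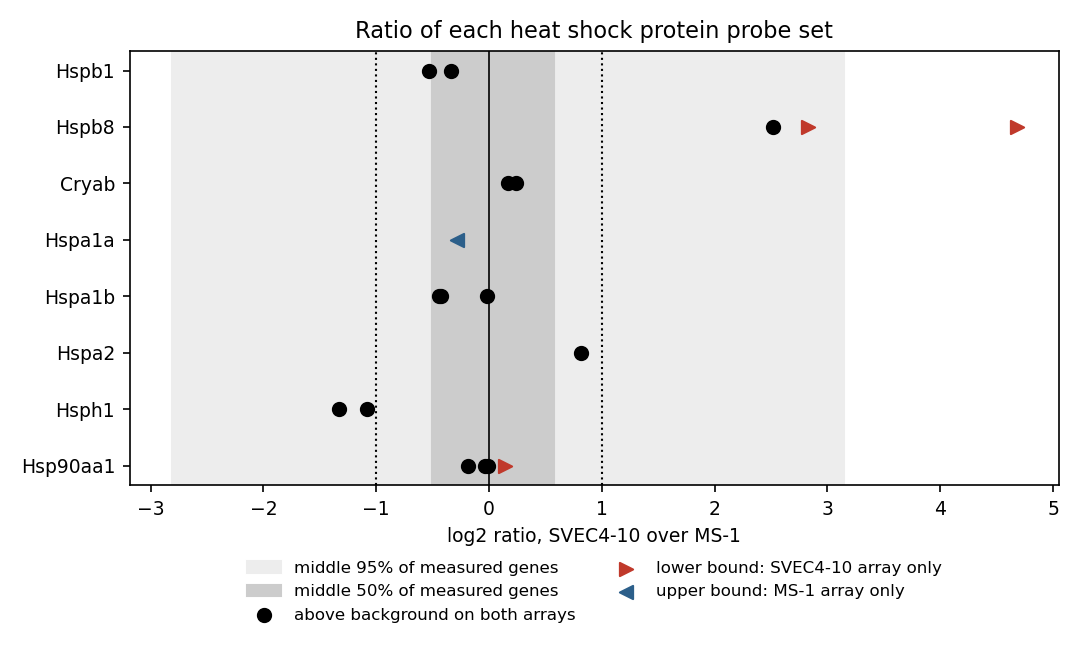
Log2 ratio of SVEC4-10 over MS-1 for each measured probe set of the 8 heat shock protein genes, with circles for probe sets above background on both arrays, triangles for bounds, dotted lines at 2-fold and grey bands for the middle 50% and 95% of all measured genes. Hspb8 lies to the right from 2.52 upwards, Hsph1 lies left of the 2-fold line at -1.08 and -1.33, and the Cryab and Hsp90aa1 points sit close to 0.

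The partners of these chaperones were compared through 9 lists of chaperone families, co-chaperones and heat shock factors. Together they held 119 measured genes outside the members. Of these, 10 (8.40%) were at least 2-fold higher in SVEC4-10 cells, against 15.1% of all measured genes. A further 5 (4.20%) were at least 2-fold lower, against 12.1% of all measured genes, and 104 were within 2-fold. The median log2 ratio of the 119 genes was 0.02, the same as over all measured genes to 2 decimals. The counts of single lists stand beside the same shares of all genes. All counts go by the probe set used for each gene, and further probe sets of some genes counted within 2-fold were past it. Scaling to the poly-A controls lowers each ratio and list median given next by 0.51, so that positive medians below that size turn negative.

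Other members of the HSP70 family were mostly at similar signal, with 1 of 10 measured genes at least 2-fold higher in SVEC4-10 cells, 2 lower and a median log2 ratio of -0.13. The lower ones were a pair of distant relatives. Hspa12b, known for its expression in endothelium, had 107 in MS-1 cells and was under background in SVEC4-10 cells, at least 6.07-fold lower there. Hspa12a had 27.2 in SVEC4-10 cells and 116 in MS-1 cells, a log2 ratio of -2.09, although its 3 measured probe sets ranged from -2.09 to -0.23. Hyou1, a large HSP70 relative of the endoplasmic reticulum, had a log2 ratio of 1.45 by the probe set used and -0.70 by another. Hspa4l, an HSP110 relative of Hsph1, had 277 in SVEC4-10 cells and 157 in MS-1 cells, a log2 ratio of 0.82. Hspa8, the constitutive cytosolic HSP70, and Hspa5, the HSP70 of the endoplasmic reticulum, had log2 ratios of -0.25 and 0.01, though a further Hspa8 probe set gave -2.11.

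J-domain proteins start the ATP cycle of HSP70. By the probe sets used, 2 of 36 measured were at least 2-fold higher in SVEC4-10 cells, 1 was lower and 33 were within 2-fold. The median log2 ratio was 0.09. Some of the 33 had another probe set past 2-fold, in either direction, such as Dnajc5 at -1.55 and Dnaja1 at 1.15. Dnajc6, the clathrin-uncoating protein auxilin, had 58.9 in SVEC4-10 cells and was under background in MS-1 cells, at least 3.62-fold higher. Dnajb6, which keeps aggregation-prone proteins soluble, had a log2 ratio of 1.02 with probe sets from -0.27 to 1.08. Dnajc15, a mitochondrial J-domain protein, had 473 in SVEC4-10 cells and 1451 in MS-1 cells, 3.07-fold lower. Dnaja1, a main cytosolic partner of HSP70, was at 2682 in SVEC4-10 cells and 2637 in MS-1 cells by the probe set used, and its 3 probe sets ranged from 0.02 to 1.15 on the log2 scale.

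Among 12 exchange and adaptor factors of HSP70, 1 was at least 2-fold higher in SVEC4-10 cells and 0 were lower, with a median log2 ratio of 0.20. The 1 was Bag2, which blocks the ubiquitin ligase Stub1, with intensities of 352 in SVEC4-10 cells and 46.1 in MS-1 cells, a 7.64-fold difference from a single probe set. Stub1 itself had a log2 ratio of 0.31 and St13, a co-chaperone of HSP70, one of 0.78.

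Of 19 measured HSP90 relatives and co-chaperones, 1 was at least 2-fold higher in SVEC4-10 cells, 1 was lower and 17 were within 2-fold. These counts go by the probe sets used, and some of the 17 had another probe set past 2-fold, in either direction. The median log2 ratio was -0.06. Unc45b, a myosin chaperone, had 58.0 in SVEC4-10 cells and was under background in MS-1 cells, at least 3.56-fold higher. Sugt1, an adaptor of HSP90, had 1387 in SVEC4-10 cells and 3472 in MS-1 cells, but its other probe set was at a log2 ratio of 0.01. Chordc1, an HSP90 partner that is induced by heat, had a log2 ratio of -0.92. Hsp90b1, the HSP90 of the endoplasmic reticulum, had one of 0.55.

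Chaperonin and prefoldin subunits, which fold actin and tubulin, were all within 2-fold (14 measured, median log2 ratio -0.34), as far as the probe sets used show. For Cct4, the probe sets ranged from -0.72 to 1.22. Of 13 mitochondrial chaperones and proteases, only Clpx, the unfoldase of a matrix protease, was at least 2-fold higher in SVEC4-10 cells, with a log2 ratio of 1.15 and a second probe set at 0.12, and 0 were lower (median -0.19). Of 21 chaperones and stress genes of the endoplasmic reticulum, 3 were higher and 1 was lower, with a median of 0.31. The higher ones were Hyou1, the disulfide isomerase Pdia4 and the stress transcription factor Ddit3, with log2 ratios of 1.45, 1.29 and 1.38, and the second Ddit3 probe set at 0.80. The lower one was the lectin chaperone Canx at -1.44, whose probe sets ranged up to -0.08.

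Of the other heat shock factors and their partners, 2 of 6 were measured, with a median of -0.18, and neither was at least 2-fold apart by the probe set used. Hsbp1, a small protein that binds Hsf1, had 1796 in SVEC4-10 cells and 1719 in MS-1 cells by the probe set used, while its second probe set gave 2.10, and Hsf4 was near background. Hsf2, a relative of Hsf1, was not above background on either array. A further list held 15 measured genes outside the members that are known to be induced through Hsf1. By the probe sets used all 15 were within 2-fold, although further probe sets of Dnaja1, Hspa4 and Hspa4l were at least 2-fold higher in SVEC4-10 cells and one of Hspa8 was lower, and the ratios used ran from -0.92 for Chordc1 to 0.82 for Hspa4l, with a median of -0.06. Dnajb1, the J-domain protein most strongly tied to the heat shock response, had 760.0 in SVEC4-10 cells and 672 in MS-1 cells. Dnajb1, Bag3 and Hspa4 were named after their values were seen.

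**Figure D3:**
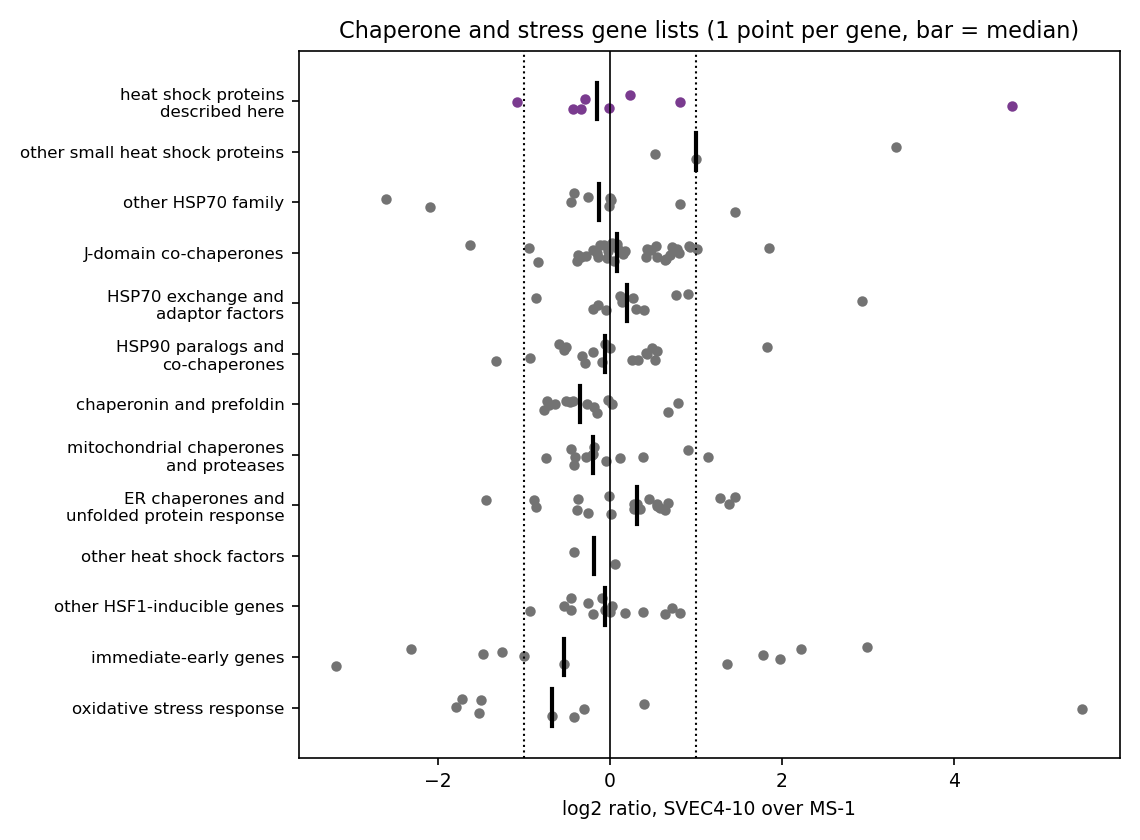
Log2 ratio of SVEC4-10 over MS-1 for each measured gene of the heat shock protein set (top row) and of 12 lists of chaperone and stress genes, with 1 point per gene, bounds drawn at their value, a black bar at the median of each list and dotted lines at 2-fold. Most chaperone genes fall between the dotted lines, whereas immediate-early and oxidative stress genes spread beyond them on both sides.

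The labels call both lines endothelial, and the defining markers differed between the arrays. The 12 endothelial markers had a median log2 ratio of -6.14 and a summed intensity of 207 in SVEC4-10 cells and 32942 in MS-1 cells. Pecam1, the adhesion molecule CD31, had 4777 in MS-1 cells and was under background in SVEC4-10 cells. Of 10 measured mesenchymal markers, 9 were at least 2-fold higher in SVEC4-10 cells and 0 lower, with sums of 34388 in SVEC4-10 cells and 136 in MS-1 cells, while Thy1 and Myh11 were not above background. All 5 mesothelial markers were higher in SVEC4-10 cells (sums of 12765 there and 53.1 in MS-1 cells). Of 4 measured leukocyte markers 3 were lower in SVEC4-10 cells, with Ptprc, Cd3e and Itgam not above background on either, and of 5 epithelial markers 2 were higher and 2 lower. The part of these cell type differences in the Hspb8, Hspb2 and Hsph1 values was not tested. The 3′ over 5′ signal ratio of Gapdh, a measure of RNA integrity, was 0.812 in SVEC4-10 cells and 0.809 in MS-1 cells.

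The direction and size of the Hspb8 and Hsph1 differences were set beside 9 other processing choices. Over these, the log2 ratio of Hspb8 ranged from 2.52, by probe set 1417014_at, to at least 5.17, and stayed above the 2-fold line. The upper value is a bound set by background on the MS-1 array and not a limit to the ratio. That of Hsph1 ranged from -1.59 to -1.07 in the settings that could measure it, since it has no probe set left when the less specific classes are dropped. The Hspa1a ratio moved most among the others, to -1.50 when values under background were used as deposited.

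**Figure D4:**
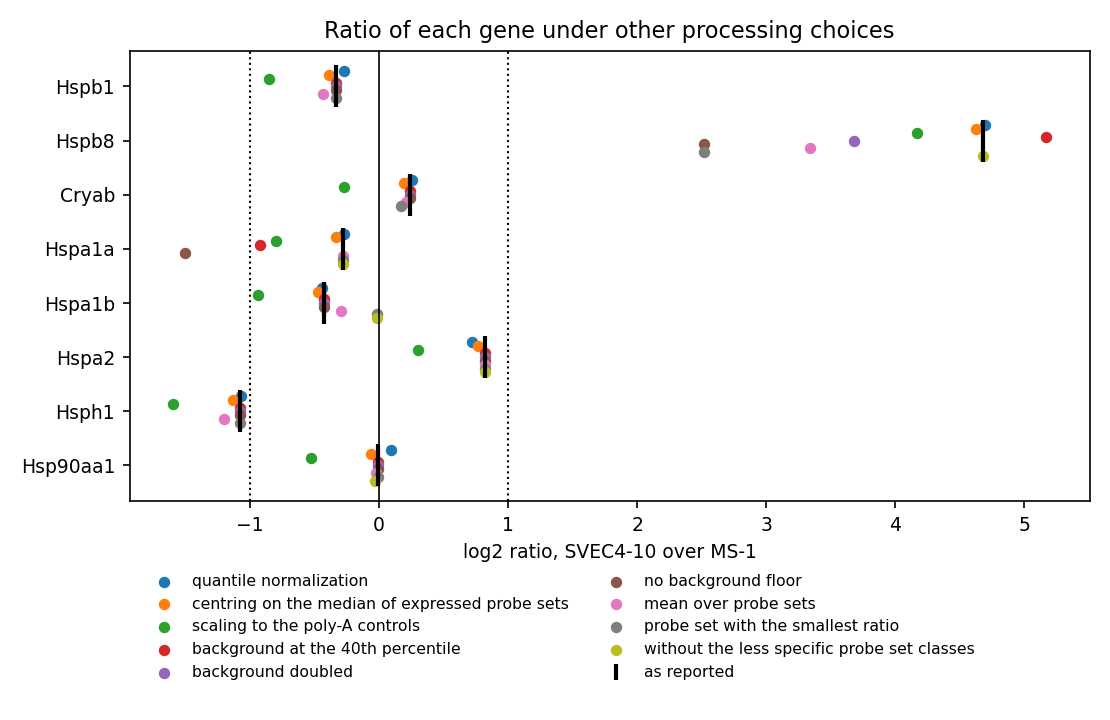
Log2 ratio of SVEC4-10 over MS-1 of each heat shock protein gene as reported (black bars) and under 9 other processing choices (coloured points), with bounds drawn at their value and dotted lines at 2-fold. Every Hspb8 point lies right of the 2-fold line and every Hsph1 point left of it, and scaling to the poly-A controls moves each gene left by 0.51.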

How the data were processed

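Labelled cRNA was made from 6 µg of RNA of 1 culture per line for Affymetrix arrays, per the labels' protocols. The authors deposited linear intensities, with 1 value for each probe set and array, and the software that made them is not given in the sources used here. Both arrays have a 2%-trimmed mean of 150.001, so the authors' values were scaled by 1 factor per array, which assumes equal total signal. The number of arrays limits the precision.

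Genes were assigned by the platform annotation, updated by gene identifier to RefSeq (GRCm38.p6, names and neighbours only). Of 45101 probe sets, 34945 had 1 gene (34741 matched), 932 had several and were left out, 9160 were unnamed and 64 were controls. For background, 129 probe sets of genes seldom expressed outside nose, tongue and hair (receptors for odorants, pheromones and tastes, and keratin-associated proteins) were taken, and their 95th percentile was used. A gene was represented by its brightest measured probe set, avoiding the _x_at and _s_at classes where another was measured. Besides all members, up to 4 genes of each list with the largest ratio and the 2 with the highest signal were eligible to be named, and genes given as not above background were named outside this rule. The alternatives were quantile normalization, median centring, scaling to poly-A controls, other backgrounds, other probe set choices and a 4-fold threshold. The steps were tested on simulated data. The members and lists were chosen with earlier results of these data known. Analyses used Python 3.11.15, pandas 2.3.3, NumPy 2.4.6 and SciPy 1.17.1.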

Additional observations from a re-analysis of the deposited data

How the results depend on the processing

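Scaling to poly-A controls used the 21 control probe sets above background on both arrays. By their median they were 1.43-fold higher in SVEC4-10 cells, with single log2 ratios from 0.28 to 0.89, so the size of the shift is uncertain. Scaling by the median lowers every log2 ratio by the same amount (-0.51) and puts the median of all genes at -0.50. The members' ratios then become at least 4.17 for Hspb8, -1.59 for Hsph1, -0.85 for Hspb1 and -0.27 for Cryab. For the others they become -0.79 or below for Hspa1a, -0.94 for Hspa1b, 0.31 for Hspa2 and -0.52 for Hsp90aa1. Medians become 0.49 (small heat shock proteins), -0.64 (HSP70), -0.42 (J-domain), -0.31 (exchange factors), -0.57 (HSP90), -0.85 (chaperonin), -0.70 (mitochondrial), -0.20 (endoplasmic reticulum) and -0.69 (heat shock factors). Genes at least 2-fold apart then number 1082 higher and 3214 lower in SVEC4-10 cells, against 1899 and 1526 as reported, or 718 and 533 at 4-fold.

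The Hspb8 ratio was at least 5.17 with background at the 40th percentile, at least 3.68 with background doubled and at least 3.34 as the mean over probe sets. It was 2.52 by the probe set of smallest ratio, 1417014_at. With no background floor it was also 2.52, since the brightest probe set is then 1417014_at in place of 1417013_at. That setting therefore does not show what the floor does to the ratio of 1417013_at. Hspa1a gave -0.92 or below with background at the 40th percentile and -1.50 with no floor. With no floor, 2 members instead of 1 were at least 2-fold lower. At 4-fold, 0 members were lower. The same held with the less specific probe set classes (_a_at, _s_at and _x_at) left out, where Hsph1 was not measured. Leaving out those classes leaves no measured probe set for Hspb1, Cryab and Hsph1, and doubling background leaves none for Hspa1a. The median of the small heat shock proteins was 1.94 with background doubled, and that of the heat shock factors 0.33 as the mean over probe sets. No paired analysis was possible, because each line has 1 array and the labels give no pairing between the lines. Values near background, as for Hspa1a, are limited by signal.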

Other observations

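Immediate-early genes, which respond to growth factors and to handling of cells within minutes, differed in both directions. Of 11 measured, 5 were at least 2-fold higher in SVEC4-10 cells and 4 were lower, with a median log2 ratio of -0.53. Over all measured genes, 15.1% were higher and 12.1% lower by this threshold. Egr1, a zinc finger transcription factor, had 1162 in SVEC4-10 cells and 146 in MS-1 cells, 7.96-fold higher, and Junb, a subunit of AP-1, had 155 in SVEC4-10 cells and 33.1 in MS-1 cells. Dusp1, a phosphatase of stress-activated kinases, had 482 in SVEC4-10 cells and 4368 in MS-1 cells, 9.06-fold lower. Atf3, a stress-induced transcription factor, had 102 in SVEC4-10 cells and 505 in MS-1 cells. Each of these genes had 1 measured probe set.

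Of 9 oxidative stress genes, 4 were at least 2-fold lower in SVEC4-10 cells and 1 was higher (median log2 ratio -0.67). The shares of all measured genes were 12.1% lower and 15.1% higher. Hmox1, the heme oxygenase, had 626 in SVEC4-10 cells and 2062 in MS-1 cells, and Nqo1, a quinone reductase, had 82.0 in SVEC4-10 cells and 282 in MS-1 cells. The higher gene was Mt2, a metal-binding metallothionein, with 1178 in SVEC4-10 cells and 26.1 in MS-1 cells, a 45.2-fold difference. The probe sets of Mt1, named after its values were seen, gave log2 ratios of at least 0.40 and of 5.27.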
